A study of Mus with 6 samples.

Results

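The miR-26 family was followed through small RNA libraries of mouse adipocytes. Its members were the rows whose names begin with miR-26a or miR-26b, all arms and copies included, and the rule uses names alone. It found 5 names in each of the 6 count tables, out of 929 known miRNA names present in every table. The 5 names are mmu-miR-26a-5p, mmu-miR-26b-5p, mmu-miR-26b-3p, mmu-miR-26a-1-3p and mmu-miR-26a-2-3p, written below without the prefix for the mouse. The adipocytes were labelled wild type (WT) on the C57BL/6 strain. The study compared 3 libraries of adipocytes after chronic intermittent hypoxia (CIH), which is repeated falls in oxygen used as a model of sleep apnoea, with 3 control libraries. The labels give no fat depot, age, sex or exposure schedule, and do not say whether the cells were cultured. They also do not tie the libraries to separate animals or cultures, so the p-values below reflect only how far these libraries spread, and that spread may be technical.

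A miRNA precursor is cut into a duplex, from which the guide strand is loaded into Argonaute and the other, passenger strand is mostly degraded. The guide then pairs through its seed with sites in messenger RNAs and lowers their translation and stability. The guide strands of the family are miR-26a-5p and miR-26b-5p, which share the miR-26 seed and are therefore expected to recognise largely the same sites. In human adipocyte progenitors the family is reported to favour differentiation and brown-like features, with the protease ADAM17 among its targets, and the histone methyltransferase EZH2 is another widely described target.

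The family has 3 precursor genes, and each lies within the span of a gene for a small phosphatase of the RNA polymerase II C-terminal domain. On GRCm38, Mir26a-1 lies on chromosome 9 from 119031796 to 119031885, within Ctdspl. Mir26a-2 lies on chromosome 10 from 126995530 to 126995613, within Ctdsp2. Mir26b lies on chromosome 1 from 74394310 to 74394394, within Ctdsp1. Both miR-26a genes give the same mature 5p strand, so miR-26a-5p reads cannot be assigned to a copy. The 3p strands carry separate names for the copies.

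The libraries held from 6291101 to 11264151 counts, and values are given as CPM, which are counts divided by the library total and scaled alike in each library. The floor was set at 3 counts per library, or 0.266 to 0.477 CPM. The 2 libraries numbered 3 stood apart from the other 4 in both groups and list a different set of names, so the comparisons of CIH with control are also given without them. The summed miRNA markers of epithelium spanned 18.6 to 170 CPM in CIH libraries and 76.3 to 409 CPM in control libraries, those of endothelium 73.1 to 104 and 33.8 to 137 CPM, and those of muscle 11.6 to 38.7 and 12.6 to 111 CPM. The epithelial sum was lower in CIH in 3 of 3 numbered pairs, at 170, 126 and 18.6 CPM in CIH libraries 1, 2 and 3, against 409, 334 and 76.3 CPM in control libraries 1, 2 and 3. In the pair numbered 3 its tested members went both ways. After TMM scaling, described below, the log2 differences there were 1.40 for miR-200a-3p, 1.02 for miR-200b-3p and 1.16 for miR-200c-3p. They were -0.59 for miR-203-3p and -5.62 for miR-205-5p. The erythroid sum was also lower in CIH in 3 of 3 pairs. It reached 136, 60.3 and 21.0 CPM in CIH libraries 1, 2 and 3, against 154, 63.7 and 54.8 CPM in control. The leukocyte sum was 3.27, 2.09 and 0.266 CPM in CIH libraries 1, 2 and 3, against 4.29, 2.16 and 0.363 CPM in control. In the pair numbered 3 both leukocyte sums lie at the floor of 3 counts, so that difference reflects the library totals alone. The leukocyte markers summed to at most 3.27 CPM in any CIH library and 4.29 CPM in any control library. Neuronal markers spanned 211 to 523 CPM in CIH libraries and 213 to 522 CPM in control libraries, erythroid markers 21.0 to 136 and 54.8 to 154 CPM, and the hepatocyte marker 2.09 to 5.59 and 2.16 to 4.12 CPM, each with its CIH range before its control range. Stromal markers, among them the abundant miR-143-3p, spanned 102098 to 123504 CPM in CIH libraries and 63987 to 147565 CPM in control libraries. In the pair numbered 3 the sum was 123504 CPM in CIH against 63987 CPM in control, while miR-143-3p held 5.51% and 5.71% of reads. After TMM scaling, described below, the log2 difference of miR-143-3p in that pair was -0.85. The others were 0.66 for miR-145a-5p, 1.50 for miR-199b-5p, 2.08 for miR-199a-5p, 2.92 for miR-199a-3p and 3.65 for miR-214-3p. Of the 32 markers present in every table, 0 were at 0 in all libraries, and the part of other cell types in the values below was not tested. Adipocytes have no defining miRNA of their own, so the cell label could not be checked here.

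miR-26a-5p, the main guide strand, was among the most abundant miRNAs in every library. It reached 24514, 19985 and 12458 CPM in CIH libraries 1, 2 and 3, against 30917, 24072 and 3758 CPM in control libraries 1, 2 and 3. Its rank among all names was 7, 7 and 12 in the CIH libraries and 7, 8 and 18 in the control libraries. Control library 3 was by far the lowest of the 6 libraries and CIH library 3 was the next lowest, and the ranges of the groups overlapped. The mean over CIH libraries was 18986 ± 6090 CPM, against 19582 ± 14125 CPM over control libraries (SD, n = 3 each). In bulk libraries fewer cells that express a miRNA and less of it per cell cannot be told apart.

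miR-26b-5p, the second guide strand, was less abundant and varied less. It reached 1565, 1314 and 2185 CPM in CIH libraries 1, 2 and 3, against 1649, 1254 and 838 CPM in control libraries 1, 2 and 3. Its rank lay between 37 and 43 in all 6 libraries. The groups overlapped, with the highest value in CIH library 3 and the lowest in control library 3. Over the 6 libraries the highest level was 2.61 times the lowest, against 8.23 times for miR-26a-5p. Within the 4 libraries numbered 1 and 2 these ratios were 1.32 and 1.55.

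The passenger strands were rare. miR-26b-3p reached 5.59, 3.58 and 1.95 CPM in CIH libraries 1, 2 and 3 (41, 36 and 22 counts), against 3.81, 2.78 and 0.242 CPM in control libraries 1, 2 and 3 (24, 27 and 2 counts). Each CIH library was above the control library of the same number, but the groups overlapped, and the value in control library 3 was under the floor. miR-26a-2-3p, the passenger strand named for the copy in Ctdsp2, reached 5.86, 5.08 and 16.5 CPM in CIH libraries 1, 2 and 3, against 9.22, 4.01 and 3.15 CPM in control libraries 1, 2 and 3. CIH library 3 was the highest, and the other 5 values of the groups overlapped. miR-26a-1-3p, named for the copy in Ctdspl, had 0, 1 and 3 counts in the CIH libraries and 1, 0 and 2 counts in the control libraries. All 6 values were at or under the floor, so no difference was detectable at this depth.

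**Figure D1:**
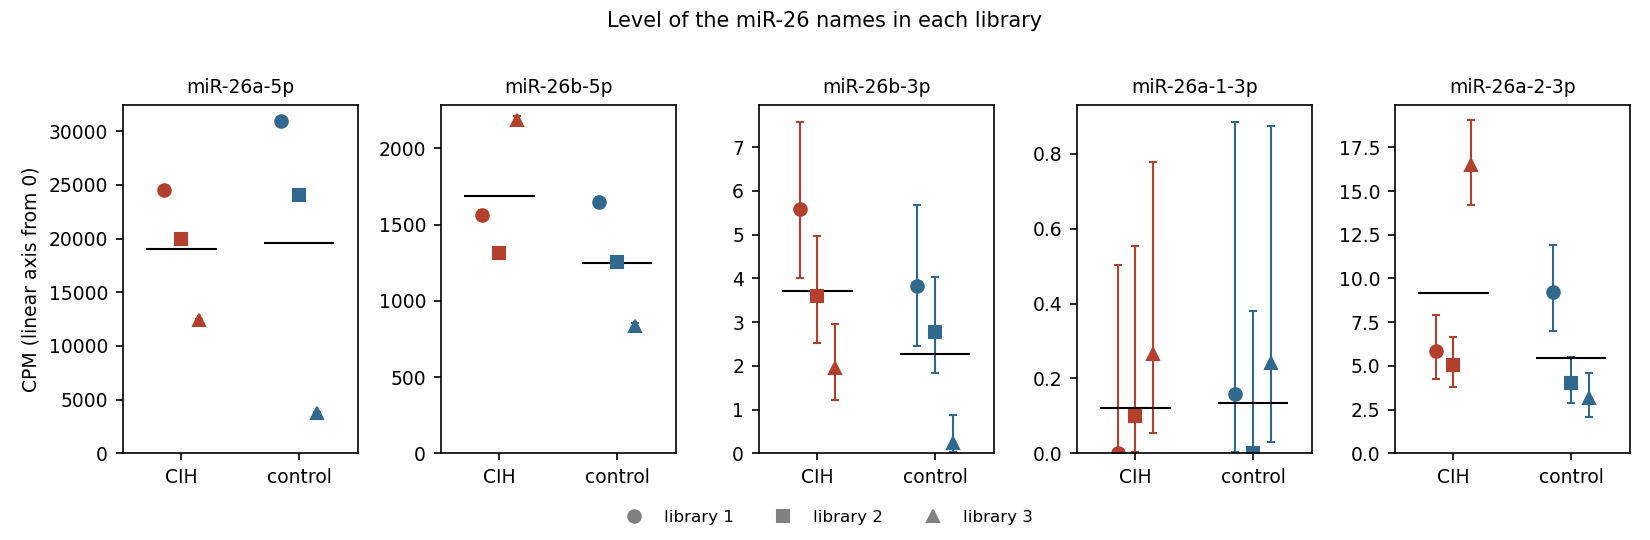
Level of each miR-26 name in CPM on linear axes from 0, with CIH left and control right in each panel. Points are libraries with their exact 95% interval (counting error only), marker shapes give the library number and horizontal bars are group means. For miR-26a-5p control library 3, at 3758 CPM, lies far below the other 5 libraries, and for miR-26a-2-3p CIH library 3, at 16.5 CPM, lies above them.

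Taken as a sum, the family held 2.61%, 2.13% and 1.47% of the reads in CIH libraries 1, 2 and 3, and 3.26%, 2.53% and 0.460% in control libraries 1, 2 and 3. CIH was lower in the pairs numbered 1 and 2, at 0.801 and 0.841 times control, and higher in the pair numbered 3, at 3.19 times control. The difference of the mean log2 levels was 0.37 (exact permutation test, two-sided, p = 0.9; adjusted p = 1 in a family of 5 measures; n = 3 each). Without the libraries numbered 3 it was -0.29 (exact permutation p = 0.667; n = 2 each). The smallest p that this test can reach is 0.1 for 3 against 3 and 0.333 for 2 against 2. In the libraries numbered 3 another miRNA, miR-148a-3p, held 24.9% of the CIH and 49.4% of the control reads, against at most 5.53% in the other 4. Shares of a total move with such a miRNA, and its part in the low family level was not tested.

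The comparison of CIH with control across all miRNAs called none of the family. edgeR's quasi-likelihood test with Benjamini-Hochberg adjustment called 0 of 456 miRNAs over the 6 libraries (0.0%). The unadjusted p was under 0.05 for 23 of them. With DESeq2 this number was 37 and with limma-voom 21, and neither tool called any (0 each). Of the 5 members 4 passed the filter on low counts, and miR-26a-1-3p did not. miR-26a-5p had a log2 difference of 0.01 (SE 0.64, adjusted p = 0.996) after TMM scaling, a scaling that sets the bulk of miRNAs level between libraries. Its sign depended on the scaling, at -0.04 with library totals alone. miR-26b-5p had 0.31 (SE 0.39, adjusted p = 0.970), miR-26b-3p 0.75 (SE 0.77, adjusted p = 0.934) and miR-26a-2-3p 0.64 (SE 0.62, adjusted p = 0.934). CPM ranges that did not overlap between the groups were found for 0 of the 4 tested members and for 11.2% of all tested miRNAs.

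Within the libraries numbered 1 and 2, the family also passed no test, although the same test called 43 of 459 miRNAs (9.37%) there. miR-26a-5p averaged 22249 ± 3202 CPM over the CIH libraries, against 27494 ± 4840 CPM over the control libraries (SD, n = 2 each), and its log2 difference was -0.16 (SE 0.20, adjusted p = 0.702; edgeR). miR-26b-5p averaged 1440 ± 178 CPM over the CIH libraries, against 1452 ± 279.5 CPM over the control libraries, and its log2 difference was 0.13 (SE 0.21, adjusted p = 0.758). With library totals alone that of miR-26b-5p was -0.01, so its direction depended on the scaling. miR-26b-3p had 0.61 (SE 0.42, adjusted p = 0.454) and miR-26a-2-3p had -0.09 (SE 0.41, adjusted p = 0.921). Library totals alone moved the median log2 difference of all tested miRNAs to -0.17, against -0.03 with TMM, and over the 6 libraries to 0.15, against 0.04.

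In the pair numbered 3, with 1 library per group and hence no test, all 4 members were higher in CIH after TMM scaling. With 0.5 CPM added to each value, the log2 differences were 0.93 for miR-26a-5p, 0.58 for miR-26b-5p, 1.36 for miR-26b-3p and 1.50 for miR-26a-2-3p. The added 0.5 CPM understates the differences of the rare passenger strands. Without it miR-26b-3p was 4.62 times as high in CIH, with an exact 95% counting interval from 1.14 to 40.5 on its 22 counts in CIH and 2 in control, and the log2 difference of miR-26a-2-3p was 1.59. A log2 difference above 1 was found for 2 of the 4 members and, in the higher direction, for 23.7% of all tested miRNAs. On plain CPM miR-26a-5p was 3.32 times and miR-26b-5p 2.61 times as high in CIH as in control in this pair. The TMM factor was 1.11 for CIH library 3 and 0.635 for control library 3, so by construction the scaled differences are smaller.

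**Figure D2:**
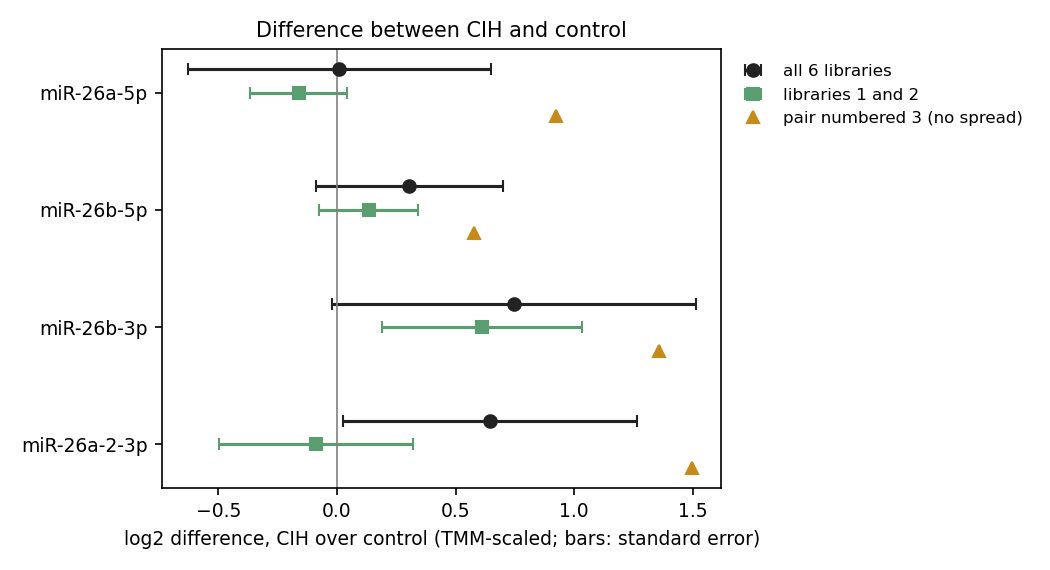
Log2 difference of CIH over control for the 4 tested miR-26 names after TMM scaling. Circles are the fit of all 6 libraries, squares the fit of libraries 1 and 2 (bars are standard errors derived from the test statistic) and triangles the pair numbered 3, which has no spread. The guide strands lie within 1 standard error of 0 in both fits, and the 4 triangles, computed with 0.5 CPM added, lie at 0.58 to 1.50.

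The libraries numbered 3 differed from the rest in miR-26a-5p after TMM scaling, while the test did not pass for miR-26b-5p. With group in the model, miR-26a-5p was lower in the libraries numbered 3 than in those numbered 1 and 2, by a log2 difference of -1.44 (SE 0.35, adjusted p = 0.0284; edgeR quasi-likelihood test). The comparison was chosen after the data were seen, and it called 25.0% of 456 miRNAs in either direction and 13.6% in the lower direction. The value was -0.90 without control library 3 and -1.93 without CIH library 3. Leaving out either leaves 1 library numbered 3, whose spread is assumed to be that of the other 4, so no p is given for these values. With library totals alone it was -1.73 (SE 0.55, adjusted p = 0.0702), which did not pass, and that scaling called 13.2% of miRNAs in either direction and 9.43% in the lower direction. miR-26b-5p had 0.29 (SE 0.28, adjusted p = 0.470), with 0.54 without control library 3 and 0.15 without CIH library 3, and its sign turned with library totals alone (-0.04). miR-26b-3p had -1.80 (SE 0.53, adjusted p = 0.0506), with -1.27 without control library 3, -2.77 without CIH library 3, where control library 3 holds 2 counts, and -2.05 (adjusted p = 0.0818) with library totals alone. miR-26a-2-3p had 0.76 (SE 0.52, adjusted p = 0.315), with 1.52 without control library 3 and -0.09 without CIH library 3. Without control library 3 the comparison called 52.3% of miRNAs in either direction and 28.1% in the lower direction, and without CIH library 3 it called 47.5% and 26.4%. The difference of CIH from control itself differed between the sets for miR-26a-5p, with a group by set term of 1.08 on the log2 scale (SE 0.35, adjusted p = 0.0185; edgeR), a term called for 30.3% of miRNAs. It sets 1 library per group against the spread of the other 4, and so counts any difference between those 2 libraries.

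The balance of the 2 guide strands is a ratio within a library and does not depend on scaling between libraries. miR-26b-5p made up 6.00%, 6.17% and 14.9% of the guide reads in CIH libraries 1, 2 and 3, and 5.06%, 4.95% and 18.2% in control libraries 1, 2 and 3. The exact (Clopper-Pearson) 95% intervals, which cover counting error only, were at most 0.779 percentage points wide. In ratio terms, miR-26a-5p reads were 15.7, 15.2 and 5.70 times those of miR-26b-5p in the CIH libraries, and 18.7, 19.2 and 4.49 times in the control libraries. The libraries numbered 3 therefore had the highest miR-26b-5p shares in both groups. In the pairs numbered 1 and 2 the share was higher in CIH, by 0.938 and 1.22 percentage points, and in the pair numbered 3 it fell by 3.30 points. The means were 9.03% ± 5.10 in CIH and 9.41% ± 7.63 in control (SD, n = 3 each; exact permutation p = 1, adjusted p = 1). Within the libraries numbered 1 and 2 the groups did not overlap, with a difference of 1.08 points (exact permutation p = 0.333, the smallest that 2 against 2 allows). CPM ranges that do not overlap were found for 49.5% of all miRNAs in that set. That rate is for levels, and none was computed for shares.

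The ratios of a and b names were computed for other miRNAs to place this shift, as a description chosen after the data were seen. Of 14 pairs of names with the same number and arm, letters a and b, at least 100 CPM in the mean and unequal counts, the median size of the shift between the libraries numbered 3 and the rest was 0.71 on the log2 scale. The miR-26 pair shifted by 1.76 towards miR-26b-5p and ranked 4 by size, after miR-146 (-3.61), miR-27 (2.39) and miR-148 (-1.83). Each shift averages CIH library 3 and control library 3, which can differ widely. The log2 ratios in these 2 libraries were -2.51 and -2.16 for miR-26, and 5.13 and 9.90 for miR-146. For miR-30, whose shift was -0.06, they were -3.58 and -7.535. Names that share a number do not in every case share a seed, and the pairs share the same 6 libraries.

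**Figure D3:**
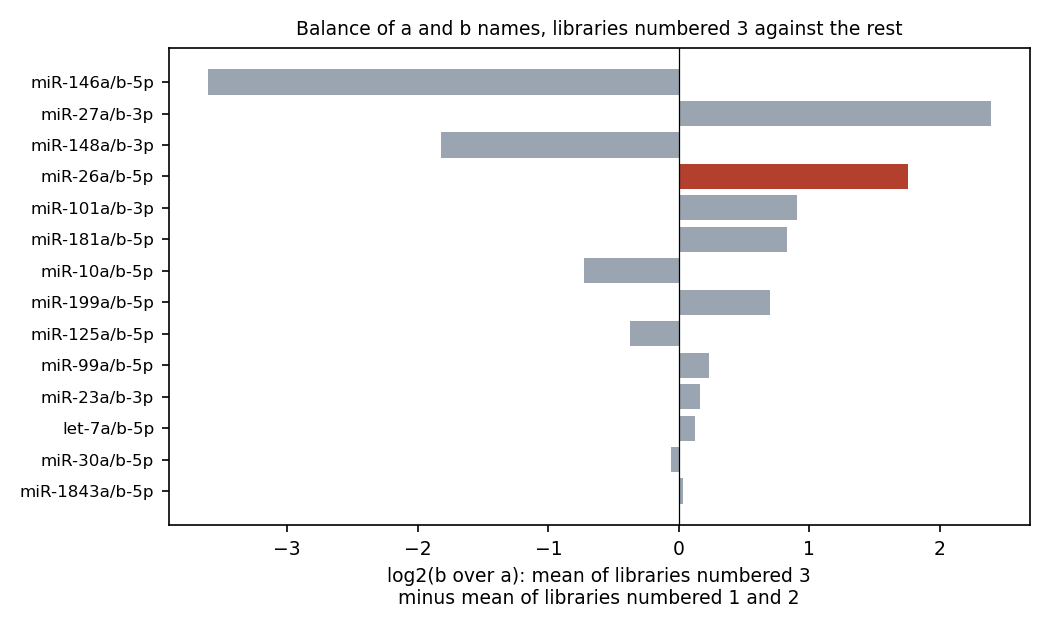
Shift in the log2 ratio of b over a names, mean of the 2 libraries numbered 3 minus mean of the 4 libraries numbered 1 and 2, for 14 pairs ordered by size. The miR-26 pair, in red, shifted by 1.76, and positive bars mean relatively more of the b name in the libraries numbered 3.

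Within each precursor the 5p arm dominated in every library. The 3p arm made up 0.356%, 0.272% and 0.0893% of miR-26b reads in CIH libraries 1, 2 and 3, and 0.231%, 0.221% and 0.0289% in control libraries 1, 2 and 3. The share was higher in CIH in 3 of 3 numbered pairs, but the groups overlapped and the exact intervals of the libraries within each pair overlapped too. The mean was 0.239% ± 0.136 in CIH and 0.160% ± 0.114 in control (SD, n = 3 each; exact permutation p = 0.5, adjusted p = 1). Within the libraries numbered 1 and 2 the difference was 0.0880 percentage points (exact permutation p = 0.333).

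For miR-26a, the 2 passenger names together made up 0.0239%, 0.0259% and 0.135% of reads in CIH libraries 1, 2 and 3, and 0.0303%, 0.0167% and 0.0901% in control libraries 1, 2 and 3. The shares in the libraries numbered 3 were the highest in both groups, the reverse of miR-26b, whose passenger share was lowest there. The mean was 0.0614% ± 0.0633 in CIH and 0.0457% ± 0.0391 in control (SD, n = 3 each; exact permutation p = 0.7, adjusted p = 1), and within the libraries numbered 1 and 2 the difference was 0.00141 points (exact permutation p = 1). The copy in Ctdsp2 gave nearly all passenger reads, 403 of 410 counts over the 6 libraries (98.3%). Per library miR-26a-1-3p made up 0, 1 and 3 of 43, 52 and 189 passenger counts in CIH, and 1, 0 and 2 of 59, 39 and 28 in control. The counts of 0 allow a share of up to 6.98% in CIH library 1 and 7.69% in control library 2. The difference of the mean shares was -1.78 points (exact permutation p = 0.7, adjusted p = 1) and, without the libraries numbered 3, 0.114 points (exact permutation p = 1). The passenger share says nothing of how the guide reads divide between the copies.

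**Figure D4:**
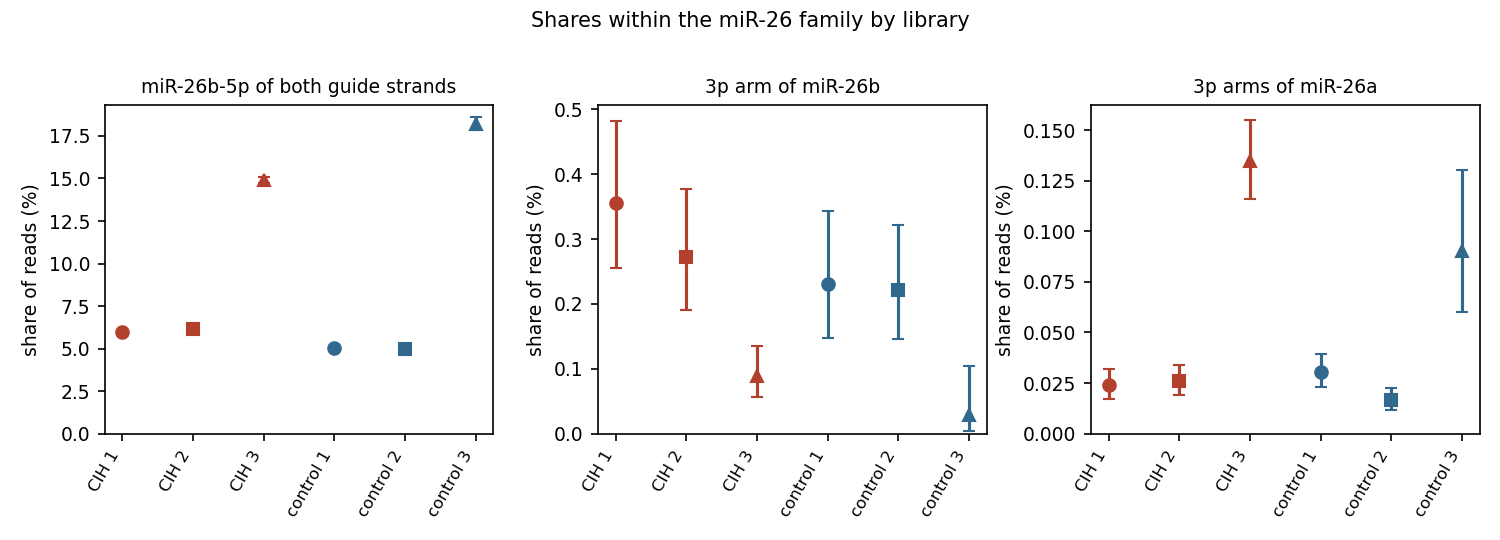
Share of miR-26b-5p among the reads of both guide strands, and shares of the 3p arms of miR-26b and miR-26a, in percent for each library, with CIH left of control. Points carry exact 95% intervals (counting error only). The miR-26b-5p share is 14.9% and 18.2% in the libraries numbered 3 and at most 6.17% in the others.

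Set beside other precursors, miR-26a was more one-sided than most, and miR-26b was near the median. Among 37 precursors of at least 1000 CPM in the mean over both arms, the rarer arm made up 0.260% of reads in the median, with a range of 0.00112% to 34.7%. These are precursors with 1 name for each arm, plus miR-26a, whose 2 passenger names were summed. Other miRNAs with several numbered names for an arm were left out. miR-26a ranked 7 from the lowest, at 0.0385%, and miR-26b ranked 15, at 0.204%. In the libraries numbered 1 and 2 alone miR-26a again ranked 7, at 0.0245%, while miR-26b ranked 19, at the median of 0.272%. These shares are of mean CPM over the libraries and were given no test.

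The miRNAs whose levels ran most like each guide were different names. For miR-26a-5p, the highest Pearson r of log2(CPM + 0.5) over the 6 libraries, among 129 other miRNAs of at least 100 CPM in the mean, was 0.999 for miR-27a-3p, reported to restrain adipocyte differentiation. It was followed by miR-191-5p (0.994), miR-224-5p (0.990), miR-501-3p (0.985) and miR-194-5p (0.981). miR-27a-3p reached 5481, 4550 and 2254 CPM in CIH libraries 1, 2 and 3, against 8316, 5472 and 512 CPM in control libraries 1, 2 and 3, in the same order over the libraries as miR-26a-5p. Without control library 3 its r was 0.996, and the r of the other 4 lay between 0.897 and 0.977.

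For miR-26b-5p the closest names were miR-99a-5p (r = 0.966), let-7a-5p (0.966), miR-27b-3p (0.957), let-7d-5p (0.955) and miR-24-2-5p (0.954), and without control library 3 these ranged from 0.908 to 0.952. miR-99a-5p reached 23080, 15926 and 40268 CPM in CIH libraries 1, 2 and 3, against 21079, 18435 and 10627 CPM in control libraries 1, 2 and 3, highest in CIH library 3 and lowest in control library 3 like miR-26b-5p. The 2 guides of the family ran together less closely, at r = 0.586 over the 6 libraries and -0.584 over the 5 without control library 3. In the order of likeness to miR-26a-5p, miR-26b-5p took place 59, with 129 others ranked. All these values share the same 6 libraries in 2 sets, and so describe these libraries and carry no p.

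**Figure D5:**
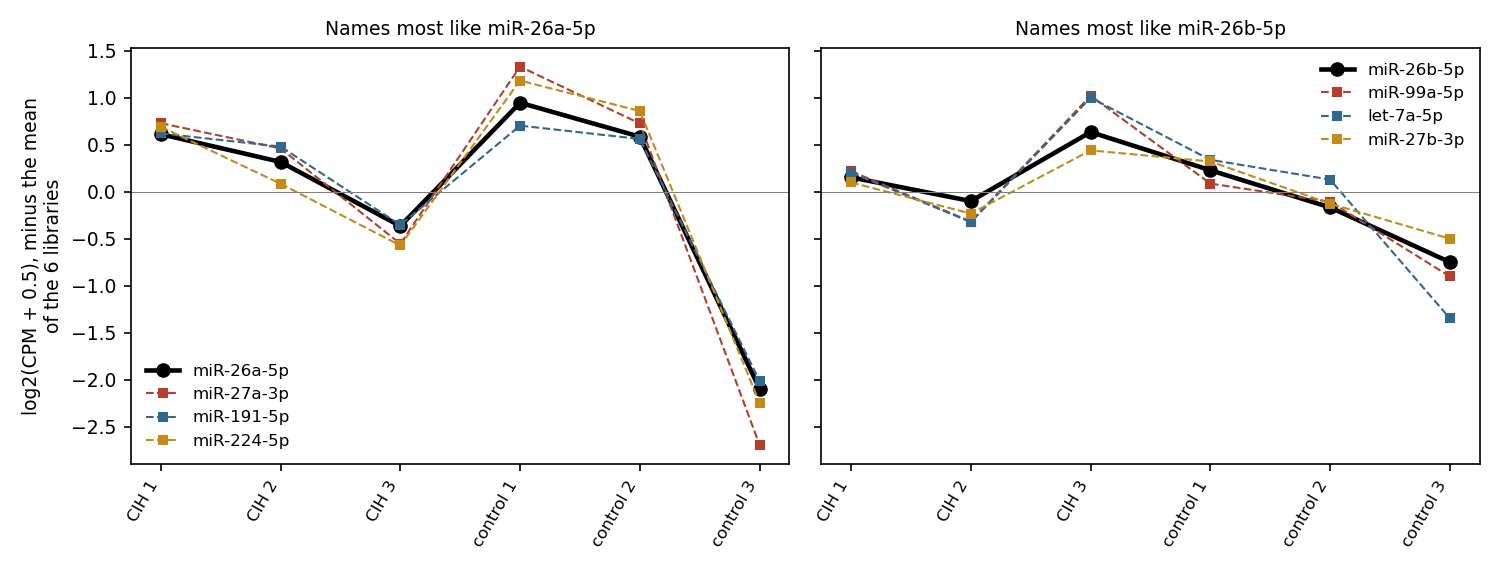
Log2(CPM + 0.5) of each guide strand, in black, and of the 3 names most like it, minus each name's mean over the 6 libraries, with CIH libraries left of control libraries. miR-26a-5p and miR-27a-3p (r = 0.999) both dip in control library 3 and, less, in CIH library 3, while miR-26b-5p and miR-99a-5p (r = 0.966) peak in CIH library 3.

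Other miRNAs reported to act in adipocyte differentiation give the setting of the family. Over the 6 libraries 0 of 21 tested pro-adipogenic miRNAs, 0 of 15 anti-adipogenic miRNAs and 0 of 14 brown and beige fat miRNAs were called (edgeR), with median log2 differences of -0.11, 0.04 and -0.23, against 0.04 over all 456 tested. Within the libraries numbered 1 and 2, 1 rose and 2 fell of 21 pro-adipogenic, 3 rose and 0 fell of 16 anti-adipogenic, and 0 rose and 2 fell of 14 brown and beige fat miRNAs, with medians of -0.18, -0.16 and -0.07, against -0.03 over all 459. Over all 459 miRNAs 19 rose and 24 fell (9.37% called). Among the pro-adipogenic names miR-210-3p, which HIF-1, the factor stabilised by low oxygen, is known to induce, and miR-148a-3p fell by 1.75 and 0.66 on the log2 scale (adjusted p = 1.90e-05 and 0.0348; edgeR), and miR-92a-3p, of the miR-17-92 cluster, rose by 1.13 (adjusted p = 0.000694). Among the anti-adipogenic names miR-221-3p, miR-222-3p and miR-155-5p rose by 1.18, 1.14 and 0.76 (adjusted p = 0.000216, 0.000723 and 0.0340). Among the brown and beige fat names miR-193b-3p and miR-203-3p, the second also an epithelial marker, fell by 1.32 and 1.24 (adjusted p = 0.00714 and 0.00751). None of these 8 passed over the 6 libraries, where the adjusted p lay between 0.833 and 0.988 (edgeR). In the pair numbered 3 miR-92a-3p went the other way, with 172 CPM in the CIH library against 400.2 CPM in the control library, or -2.02 on the log2 scale after TMM scaling. There miR-210-3p and miR-203-3p were higher in CIH on plain CPM, at 59.6 against 43.0 and 7.55 against 6.66 CPM, and lower after TMM scaling, at -0.33 and -0.59. The other 5 had the same direction in that pair, on the TMM scale.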

How the data were processed

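Small RNA was measured in 3 CIH and 3 control libraries. Each deposited table lists 1053 or 1186 miRNA names with values that were taken as raw read counts, being whole numbers with unequal totals, although 3 headers name the column FPKM. GRCm38, DESeq 1.8.3 and featureCounts 1.5.0-p3 are named, without roles, per the submitters' processing notes. How reads were trimmed, aligned and assigned when several names match is not given in the sources used here. Whether miR-26a-5p and miR-26b-5p share reads was therefore not tested.

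The 929 known names in all tables, which hold 99.97% or more of each library, entered edgeR 4.0.16 (R 4.3.3; quasi-likelihood F test, robust, TMM, filterByExpr defaults, group as the only term, Benjamini-Hochberg at 0.05). The SE given with an edgeR value is the size of the log2 difference divided by the square root of its F statistic. Alternatives were library totals, edgeR with relative log expression (RLE) scaling, the DESeq2 1.42.0 Wald test with its own size factors, and limma-voom (limma 3.58.1). Further alternatives were other filters, the library number as a block, the set as a term and leaving out each library. Shares were compared by two-sided exact permutation tests, adjusted over 5 measures. Tables were read with Python 3.11.15, and positions are those of RefSeq on GRCm38.p6. No molecular identifiers are described, so intervals and floors reflect counting error alone.

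All 5 members are named. Of each adipose list the members called in either fit are named, up to 5 by smallest p, and the 5 names most like each guide. The members and lists were chosen with earlier results of these data known. Libraries of equal number deviated together from their group means (r = 0.304, 0.344 and 0.395 over 460 names, each over 0.1), so the blocked fit takes the numbers as pairs. CIH library 2 correlated as closely with control library 1 (0.397), and the numbers 1 and 2 against 3 also separate the libraries, so pairing by number within 1 and 2 is not shown.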

Additional observations from a re-analysis of the deposited data

Results flagged for a closer look

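For miR-26a-5p the difference between CIH and control was not the same in the 2 sets of libraries. A term for group by set, added after the data were seen, was 1.08 on the log2 scale (SE 0.35, adjusted p = 0.0185, edgeR quasi-likelihood test) after TMM scaling. With library totals alone it was 2.03. CIH was below control in 2 of 2 pairs numbered 1 and 2 and above it in the pair numbered 3. After TMM scaling the same term was called for 30.3% of 456 miRNAs. It takes its spread from the libraries numbered 1 and 2 and sets it against 1 library per group, so it counts any difference between those 2 libraries. The term did not pass for miR-26b-5p (0.44, adjusted p = 0.378), miR-26b-3p (1.55, adjusted p = 0.324) or miR-26a-2-3p (1.67, adjusted p = 0.0731). With library totals alone it was 1.40 for miR-26b-5p, 2.64 for miR-26a-2-3p and 2.46 for miR-26b-3p. No call is given for that scaling, since its share over all miRNAs was not counted. The calls above are for TMM scaling alone, and the term is not shown to be particular to miR-26a-5p.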

How the results depend on the processing

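No member passed the adjusted threshold under any of the 102 combinations of member and alternative setting run (smallest adjusted p = 0.266), and 91 of them kept the direction. For miR-26a-5p over 6 libraries the log2 difference was -0.0447 with library totals and -0.0599 in edgeR with RLE scaling. It was -0.0599 in DESeq2's Wald test with its own size factors and -0.0205 with no filter on low counts. Leaving out each library it ran from -0.39 to 0.40, lowest without control library 3. For miR-26a-2-3p the range was -0.0380 (without CIH library 3) to 1.07, and in libraries 1 and 2 it was -0.47 to 0.51, with 0.0334 under limma-voom. miR-26b-5p turned only with library totals in libraries 1 and 2 (-0.0119). With the library number as a replicate block miR-26a-5p stood at 0.20 and miR-26b-5p at 0.29, and the block changed no call of a member. The 10 most abundant miRNAs include miR-26a-5p, so leaving them out gave it no value, and a minimum mean of 10 CPM gave none for the passenger strands.

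The family difference was -0.29 in libraries 1 and 2, -150.0 CPM on the linear scale and from -0.51 to 0.90 leaving out each library. The miR-26b-5p share difference was 1.08 points in libraries 1 and 2, 0.0832 as log2 odds and from -3.33 to 4.02 leaving out each library. The 3p share of miR-26a ranged from -0.0208 to 0.0379 points, and that of miR-26a-1-3p among passenger reads from -3.25 to 0.323, with 0.114 in libraries 1 and 2. The count of 43 called miRNAs was 16 with a minimum mean of 10 CPM, and 6 to 91 leaving out each library (controls 1 and 2 left out gave 14 and 6, CIH 1 and 2 left out gave 23 and 91). The counts of called list members were 3, 3 and 2 in libraries 1 and 2 for the pro-adipogenic, anti-adipogenic and brown and beige lists. The causes of these changes were not tested. Depth limits the passenger strands, with 0 to 3 counts of miR-26a-1-3p per library.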
